A study of Mus musculus with 13 samples.

Results

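STAG2 and STAG1 were compared on the chromatin of proliferating NU1 cells, a mouse urothelial line. The members were chosen by their labels. They are the 2 STAG2 and the 2 STAG1 libraries of proliferating cells, 4 of the 12 libraries for which a list of peaks was analysed. Each library is a chromatin immunoprecipitation followed by sequencing (ChIP-seq) from wild-type cells, made with 25 ug of antibody on 550 ug of chromatin. NU1 cells are normal urothelial cells that became immortal on their own through serial passage, so all libraries came from 1 line. Every culture was grown in medium with 15% chelated fetal bovine serum and 5 ng/ml EGF. The 2 CTCF libraries of proliferating cells, and the 2 STAG2 and 2 STAG1 libraries of quiescent cells, were read at the same places as measurements that played no part in the comparison. Quiescent cultures were confluent and received 1 uM rosiglitazone, which activates PPAR gamma, together with the EGF receptor kinase inhibitor erlotinib at 0.5 uM. The labels call the replicates biological, and do not say whether same-numbered libraries came from the same culture. Each protein was read with 1 antibody, so a property of the protein and a property of its antibody cannot be told apart.

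Cohesin is a ring of SMC1, SMC3 and RAD21 that holds sister chromatids together and extrudes loops of DNA. Each ring in a somatic cell carries STAG1 or STAG2 as its peripheral subunit. CTCF is a zinc finger protein that binds a long DNA motif and stops the moving ring, which leaves cohesin peaks at CTCF sites. STAG2 is a tumour suppressor of the bladder, where it is often lost by mutation. Work in other cells has described STAG1 as the form more bound to CTCF sites and domain borders, and STAG2 as the form also found at enhancers and promoters without CTCF.

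The DNA before 8 gene starts gives examples of starts that only 1 protein held or at which the 2 proteins ranked differently. They were picked after their values were seen and are not all among those with the largest differences. Each line holds the 250 bases upstream of a RefSeq start site of GRCm38.p6 (mm10), read 5′ to 3′ on the gene's strand. Capitals mark a CTCF core, that is CCA, any 2 bases, AG, any 2 bases and GGC, or the reverse complement of these. The stretches are, in order, chr17:33915926-33916175 (plus strand), chr10:127070262-127070511 (minus), chr7:30563205-30563454 (minus), chr1:58112886-58113135 (plus), chr16:22439571-22439820 (minus), chr10:77606348-77606597 (plus), chr9:46272814-46273063 (plus) and chr16:3908759-3909008 (plus). At Zbtb22 and Tspan31 only the STAG2 libraries had a peak, and at Psenen and Aox3 only the STAG1 libraries. At Etv5 and Zpr1 both proteins were called and STAG2 ranked far higher. At Sumo3 and Cluap1 both were called and STAG1 ranked higher.
Zbtb22: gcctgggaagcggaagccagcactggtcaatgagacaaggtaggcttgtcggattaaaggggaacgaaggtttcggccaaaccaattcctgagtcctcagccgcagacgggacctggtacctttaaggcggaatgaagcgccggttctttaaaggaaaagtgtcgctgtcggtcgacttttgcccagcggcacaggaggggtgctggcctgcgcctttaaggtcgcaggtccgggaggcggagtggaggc
Tspan31: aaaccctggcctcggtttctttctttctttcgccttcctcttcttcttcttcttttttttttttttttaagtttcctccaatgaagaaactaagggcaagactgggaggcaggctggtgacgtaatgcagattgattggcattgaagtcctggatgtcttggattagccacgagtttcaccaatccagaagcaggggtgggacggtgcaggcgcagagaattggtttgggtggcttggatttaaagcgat
Psenen: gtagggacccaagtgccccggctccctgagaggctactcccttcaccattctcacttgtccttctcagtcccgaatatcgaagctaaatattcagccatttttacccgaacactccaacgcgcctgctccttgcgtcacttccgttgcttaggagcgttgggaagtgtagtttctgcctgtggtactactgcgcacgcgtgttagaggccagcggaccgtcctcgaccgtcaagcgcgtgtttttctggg
Aox3: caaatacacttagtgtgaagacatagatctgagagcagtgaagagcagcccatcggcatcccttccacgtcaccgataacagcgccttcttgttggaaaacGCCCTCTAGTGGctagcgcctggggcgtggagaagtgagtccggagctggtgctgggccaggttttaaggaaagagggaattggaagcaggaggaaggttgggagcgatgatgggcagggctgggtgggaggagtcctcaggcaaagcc
Etv5: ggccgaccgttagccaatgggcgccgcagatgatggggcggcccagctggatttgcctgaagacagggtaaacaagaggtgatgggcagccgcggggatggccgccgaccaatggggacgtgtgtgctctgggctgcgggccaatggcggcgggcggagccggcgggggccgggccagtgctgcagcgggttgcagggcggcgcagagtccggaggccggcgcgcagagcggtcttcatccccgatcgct
Sumo3: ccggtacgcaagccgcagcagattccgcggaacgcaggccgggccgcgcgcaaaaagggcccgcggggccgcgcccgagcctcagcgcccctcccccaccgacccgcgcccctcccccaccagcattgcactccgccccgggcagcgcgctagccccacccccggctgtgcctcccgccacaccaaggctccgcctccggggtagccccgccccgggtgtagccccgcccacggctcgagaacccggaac
Zpr1: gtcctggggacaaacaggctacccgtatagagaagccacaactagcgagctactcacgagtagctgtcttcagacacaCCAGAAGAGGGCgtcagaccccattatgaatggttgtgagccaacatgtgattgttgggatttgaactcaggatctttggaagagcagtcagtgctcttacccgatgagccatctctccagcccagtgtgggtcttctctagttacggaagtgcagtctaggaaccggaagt
Cluap1: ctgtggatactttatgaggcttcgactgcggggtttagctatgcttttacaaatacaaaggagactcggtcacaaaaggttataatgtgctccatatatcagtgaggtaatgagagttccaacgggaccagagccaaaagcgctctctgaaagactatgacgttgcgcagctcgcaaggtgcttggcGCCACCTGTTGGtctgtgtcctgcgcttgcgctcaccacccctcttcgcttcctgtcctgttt
A core lay in 3 of these 8 stretches, at Aox3, Zpr1 and Cluap1, the last 2 of which were printed because they hold one. CTCF was called in both of its libraries at these 3 sites and also at Etv5 and Sumo3, where the 250 bases hold no core. The sites at Etv5 and Sumo3 cover 2627 and 1348 bp, and DNA away from gene starts was not searched for cores. It was called in neither library at Zbtb22, Tspan31 and Psenen.

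The STAG2 libraries held 47295 and 45582 peaks and the STAG1 libraries 38857 and 50468, so the shortest and the longest list were both of STAG1. Median peak widths lay between 537 and 547 bp. The number of reads behind each list is unknown, and a peak that is missing from a list may have been just under the authors' threshold. Peaks of the 4 lists that shared at least 1 bp were joined into 69207 sites. A peak's height is given below as its fold enrichment, the authors' own value over local background. Folds were compared only as ranks within a library.

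Most of what both replicates of one protein held was also held by the other protein. Of the 69207 sites, 27120 (39.2%) had a peak in all 4 libraries, and these are called shared. STAG2 stood in both of its libraries with no STAG1 peak at 2132 sites (3.08%). STAG1 stood in both of its libraries with no STAG2 peak at 1549 sites (2.24%). The other 38406 sites were held unevenly, 9433 of them in STAG1 replicate 2 alone and 2649 in STAG1 replicate 1 alone. These counts do not separate the proteins from the replicates, since 2182 sites were held by replicate 2 of both proteins and replicate 1 of neither. The mean Jaccard index (bases in common over bases in either list) was 0.582 within a protein and 0.572 between proteins. That difference of 0.0103 did not pass (exact permutation p = 1, two-sided, where 2 against 2 libraries cannot go below 0.333), and it was -0.00194 without STAG2 replicate 1 and -0.0329 without STAG2 replicate 2. A site held by 1 library of a protein is enough to take it out of the other protein's class, so each library moves both classes. With 1 library of a protein left out, the STAG2 class held between 3290 sites, without STAG1 replicate 1, and 8678, without STAG2 replicate 1. The STAG1 class then held between 2274 sites, without STAG2 replicate 2, and 11014, without STAG1 replicate 1.

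**Figure D1:**
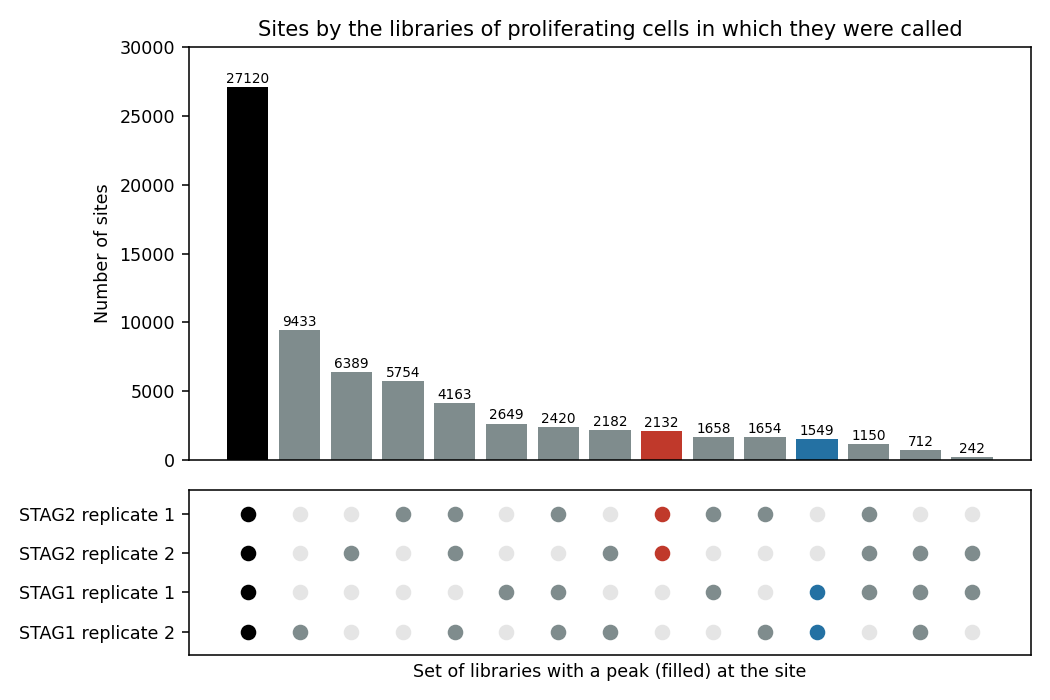
Number of sites (vertical axis) for each set of proliferating libraries in which a site was called, with filled dots naming the libraries. The 27120 sites of all 4 libraries exceed every other set, and the 2132 sites with STAG2 alone (red) and 1549 with STAG1 alone (blue) lie among sets that cross the proteins.

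Sites with STAG2 alone seldom had CTCF, and sites with STAG1 alone often did. CTCF was called in both of its libraries at 341 of the 2132 STAG2-alone sites (16.0%), at 854 of the 1549 STAG1-alone sites (55.1%) and at 22441 shared sites (82.7%). It was called in neither library at 72.9%, 23.4% and 9.16% of them. Over all 69207 sites the shares were 47.8% with CTCF in both libraries and 40.4% with CTCF in neither. Over the 38406 unevenly held sites they were 24.6% and 61.3%, nearer to the STAG2-alone sites. The gap of -39.1 percentage points between the 2 single-protein classes depended on STAG1 replicate 1. Without that library it was 3.80 points, and without STAG1 replicate 2 it was -10.9 points, whereas it was -38.6 and -52.7 points when a STAG2 library was left out. Over whole lists, STAG1 replicate 1 also had the highest share of peaks that matched both CTCF libraries, 72.2%, against 58.4% in STAG1 replicate 2 and 61.6% and 58.7% for STAG2. The STAG2 mean was lower than the STAG1 mean by 5.21 points (exact permutation p = 1), and higher by 1.69 points without STAG1 replicate 1.

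Both kinds of single-protein site were narrow, of low rank and mostly far from genes' start sites. Median widths were 505 bp for STAG2 alone and 482 bp for STAG1 alone, against 821 bp for shared sites. In their own lists their median percentile of fold was 26.1 and 34.5, while shared sites had medians of 68.8 in the STAG2 and 65.5 in the STAG1 lists. A start site lay within 1 kb of 196 STAG2-alone sites (9.19%), 63 STAG1-alone sites (4.07%) and 8110 shared sites (29.9%). The difference of 5.13 points between the single-protein classes was -1.14 points without STAG2 replicate 2 and 19.1 points without STAG1 replicate 2. Median distances to the nearest start were 25.1 kb, 37.1 kb and 13.2 kb. Whole lists hardly differed in position, with 29.3% ± 1.31 (SD, n = 2) of STAG2 and 29.2% ± 0.608 of STAG1 peaks within 1 kb of either end of a protein-coding gene (exact permutation p = 1).

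Each class of single-protein sites was called more often by the same antibody than by the other in quiescent cells. STAG2-alone sites had a peak in 34.99% and 27.7% of cases in the quiescent STAG2 libraries and in 10.8% and 12.4% in the quiescent STAG1 libraries. STAG1-alone sites had a peak in 48.2% and 50.5% of cases in the quiescent STAG1 libraries and in 17.4% and 10.2% in the STAG2 ones. Over all sites the shares were 51.0% and 46.5% in the quiescent STAG2 libraries and 46.6% and 48.2% in the STAG1 ones. At the unevenly held sites they were 23.3% and 17.3% for STAG2 and 18.0% and 19.5% for STAG1. The groups did not overlap in either single-protein class, with differences of 19.7 and 35.6 points. Neither can pass with 2 against 2 libraries (exact permutation p = 0.333, which is the lowest it can give). The gaps kept their sign without each library of proliferating cells. The STAG2 gap was 7.15 points without STAG2 replicate 1 and 8.88 without STAG2 replicate 2, and the STAG1 gap was 5.26 points without STAG1 replicate 1 and 20.8 without STAG1 replicate 2. The gap was present with and without CTCF. Among STAG2-alone sites it was 18.8 points where both CTCF libraries had a peak and 19.6 points where neither had one, and among STAG1-alone sites 39.9 and 23.3 points. By the strict rule, 245 STAG2-alone sites (11.5%) were STAG2 alone again in quiescence, while 13 were STAG1 alone. Of the STAG1-alone sites 342 (22.1%) were STAG1 alone again and 5 were STAG2 alone. No STAG peak was left in quiescence at 49.3% of the STAG2-alone and 30.7% of the STAG1-alone sites.

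**Figure D2:**
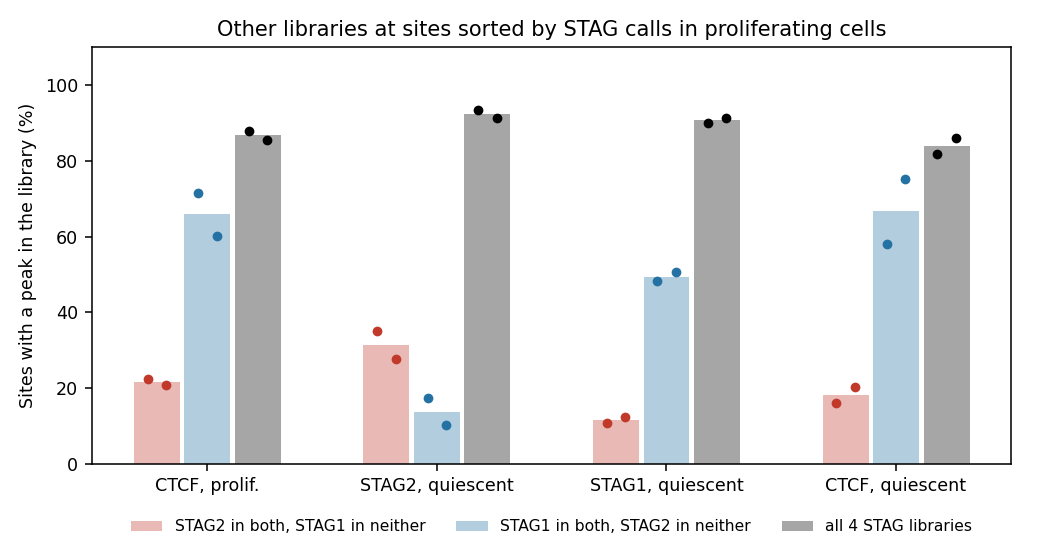
Share of sites (percent) with a peak in each CTCF library and each quiescent library, for sites that STAG2 alone (red), STAG1 alone (blue) or all 4 libraries (black) held in proliferating cells. Dots are libraries and bars their mean; the red bars are the lower ones for CTCF, and in quiescent cells each protein's own sites are the higher of the 2 single-protein classes.

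The STAG2-alone sites of highest rank at gene ends lay mostly at places without CTCF. The first was a 752 bp site at chr17:33915706-33916457, over the start of Zbtb22, a zinc finger gene, and beside Daxx, which encodes a chaperone of histone H3.3. Its folds were 24.01 and 26.0 in the 2 STAG2 libraries, and no STAG1 or CTCF library had a peak. Pias4, which encodes a SUMO ligase, followed with 22.01 in both libraries at chr10:81168646-81169382, outside the gene body. Inpp5j, a phosphatase of inositol lipids, had 22.7 and 19.3, and Tspan31, a tetraspanin gene, had 17.7 and 21.01 over its start. At Ikbke, which encodes a kinase of innate immune signalling, folds were 12.9 and 19.4. These 5 sites had mean percentiles between 79.8 and 91.4 in the STAG2 lists, far above the class median, and all 5 were STAG2 alone in quiescent cells too. Cdh4, which encodes R-cadherin, had folds of 13.5 and 12.5 and was also STAG2 alone in both states. Gm6710 had 1 quiescent STAG2 peak, and Pts, an enzyme of biopterin synthesis, had none in quiescence. Of these 8 sites only the one at Gm6710 had a CTCF peak, in 1 library. All 8 met the rule under every one of the 10 alternative settings tried for them.

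The STAG1-alone sites of highest rank were lower, and more of them had CTCF. The first lay at chr7:30562851-30563694 over the starts of Psenen, a subunit of the gamma-secretase that cleaves Notch, and U2af1l4, a splicing factor. Its folds were 13.6 and 23.7 in the STAG1 libraries, it had no CTCF peak, and it was STAG1 alone in quiescent cells as well. F3, which encodes tissue factor, had folds of 10.9 and 10.0, with CTCF in both libraries and both STAG proteins in quiescence. A further 7 sites, at Dkk4, Slc7a10, Ndufs7, Rrp15, Serpinb1b, Sox4 and Aox3, had folds between 6.67 and 15.0. Except at Sox4, a transcription factor gene of the high mobility group, they had CTCF in both libraries. At Aox3, an aldehyde oxidase gene whose upstream bases hold the CTCF core printed above, the summit lay 113 bp from the start. Both quiescent STAG1 libraries held all 9 of these sites. Quiescent STAG2 was called at 6 of them, in both libraries at F3, Dkk4 and Slc7a10. With 20000 peaks in every library 6 of the 9 no longer met the rule, and U2af1l4, F3 and Dkk4 did.

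Where all 4 libraries had a peak, the order of the sites was much the same for both proteins. Spearman correlations of fold over the 27120 shared sites were 0.844 within STAG2, 0.809 within STAG1 and 0.659 to 0.778 between them, as a description of libraries that share a cell line. The strongest shared sites were strong in every library and had CTCF in both of its libraries. Within Coq7, a gene of ubiquinone synthesis, folds were 91.8 and 81.8 for STAG2 and 72.9 and 85.3 for STAG1. Beside Ivd, an enzyme of leucine breakdown, they were 76.3 and 76.9 against 85.3 and 75.4. At Pthlh, which encodes parathyroid hormone-related protein, they were 78.9 and 67.9 against 72.4 and 74.8. By rank within a library these 3 sites stood at 99.83% or higher in all 4 libraries. Both STAG2 ranks lay above both STAG1 ranks at Coq7 and Pthlh, and the ranks overlapped at Ivd. Cdkn2aipnl, Kiss1r, Scnn1g, a site within Itgb7, and sites nearest to Skida1, Rhbdd2 and Foxj1 complete the 10 highest, with folds between 63.9 and 93.9 in the 4 libraries.

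A small set of shared sites ranked differently for the 2 proteins. The rank of a site is the percentage of shared sites with a lower fold in the same library. It was turned into a normal score and tested with limma over all 27120 sites. STAG2 ranked higher at 160 sites (0.59%) and STAG1 at 112 (0.413%) with a Benjamini-Hochberg adjusted p under 0.05. The median rank difference was 59.6 points at the former and -38.5 points at the latter. Both STAG2 ranks lay above both STAG1 ranks at 6593 sites (24.3%), and the reverse held at 6177 (22.8%). The counts of calls depended on the libraries. They were 6 and 3 without STAG2 replicate 2, 73 and 74 without STAG2 replicate 1, and 358 and 229 without STAG1 replicate 2, where the lone library is assumed to vary like the others. Without a trend of variance with rank limma called none, with 3531 sites at an unadjusted p under 0.05. All 160 and 112 sites kept their direction in each of these fits, which is no separate support. The fit without a trend changes only the variance. The others reuse libraries from which the sites were called.

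**Figure D3:**
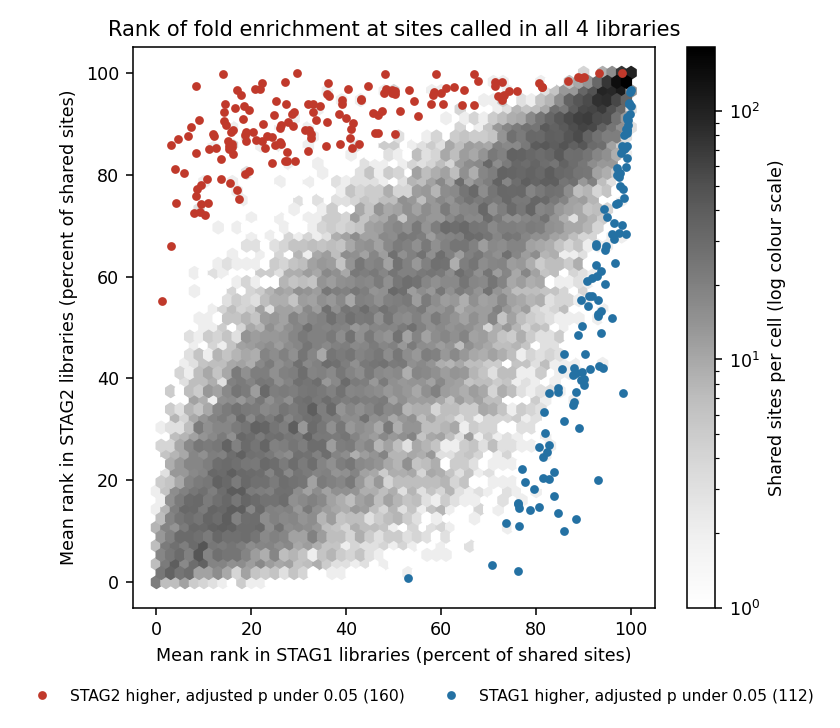
Mean rank of fold enrichment in the STAG1 libraries (horizontal) against the STAG2 libraries (vertical) over shared sites, in percent, with grey shading for the number of sites. The 160 sites called STAG2 higher (red) centre on a rank difference of 59.6 points and the 112 called STAG1 higher (blue) on -38.5 points. Called sites can lie near the grey diagonal, as at Cluap1 with -8.23 points.

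The 2 sets of called sites lay at different kinds of place. A gene start was within 1 kb of 118 of the 160 STAG2-higher sites (73.8%) and of 7 of the 112 STAG1-higher sites (6.25%), against 29.7% of shared sites that were not called. With 1 library left out these shares ranged from 61.7% to 83.6% and from 0% to 33.3%, the last over 3 sites. The STAG2-higher sites were wide, with a median of 1381.5 bp, and their median distance to a start was 0.123 kb. The STAG1-higher sites had a median width of 705.5 bp and a median distance of 39.9 kb, and 48.2% of them lay outside genes and more than 1 kb from any. CTCF was called in both libraries at 135 STAG2-higher sites (84.4%) and at all 112 STAG1-higher sites. Its strength differed. Among shared sites with CTCF in both libraries, the STAG2-higher sites had median CTCF ranks of 27.2 and 33.4 and the STAG1-higher sites 79.1 and 75.9, around a median of 49.97 and 49.94 at sites not called. The median CTCF folds were 10.0 and 10.1 against 36.2 and 31.4. Position and site width were not held fixed in this comparison, and CTCF was weaker near starts in general. Of shared sites with CTCF in both libraries, 2227 of 6978 near starts lay in the weakest CTCF group described below. Away from starts 2026 of 15463 did.

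Etv5 had the largest rank difference of all shared sites at a gene end. It encodes an ETS transcription factor induced by growth factor signalling through MAPK. The site, chr16:22438221-22440847, covers 2627 bp over the gene start. Its folds were 47.4 and 41.4 in the STAG2 libraries and 5.28 and 5.14 in the STAG1 libraries, so the groups were far apart. The score difference was 3.36 ± 0.28 (SE; limma adjusted p = 0.000393), and CTCF had folds of 34.3 and 20.6. Lrfn3, which encodes a synaptic adhesion molecule, had folds of 65.4 and 67.4 against 4.49 and 7.98 at chr7:30362704-30363463 (limma adjusted p = 0.000151), with CTCF in 1 library. Sephs1, a selenophosphate synthetase gene, had 29.7 and 27.7 against 4.14 and 6.20. The start shared by Ubfd1 and Ears2, the second of which encodes a mitochondrial tRNA synthetase, had 30.5 and 30.5 against 3.20 and 7.15.

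A further 6 starts complete the list with STAG2 above STAG1. At Pnpla6, a phospholipase gene, and its neighbour Mcoln1, which encodes a lysosomal channel, folds were 26.3 and 28.1 against 4.40 and 5.74, with no CTCF peak. At Oaf they were 40.02 and 48.4 against 5.67 and 7.34. At Usp36, a nucleolar deubiquitinase gene, they were 35.8 and 34.4 against 5.00 and 7.40. Mcrip2, Ghdc and Baz1b, the last a chromatin remodelling gene, had STAG2 folds between 20.96 and 39.4 and STAG1 folds between 3.75 and 8.50. All 10 passed with limma adjusted p between 0.000151 and 0.0127, and all 10 lay over a gene start. At all 10 both quiescent STAG2 libraries had a peak too, and at 3 of them, Pnpla6, Usp36 and Ghdc, 1 quiescent STAG1 library had none. Without STAG2 replicate 2 only Lrfn3 of the 10 was still called, and without STAG2 replicate 1 Ubfd1 and Baz1b were not.

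The largest differences in the other direction lay mostly away from starts. At chr8:83996378-83999145, by the ends of Samd1 and of Prkaca, which encodes a catalytic subunit of protein kinase A, STAG1 had folds of 33.0 and 34.6 and STAG2 of 6.43 and 5.57 (limma adjusted p = 0.00559). At Lrrc74a they were 37.9 and 25.9 against 6.99 and 4.49. At Myh9, the heavy chain of a nonmuscle myosin, they were 27.5 and 24.8 against 8.11 and 4.67, over strong CTCF with folds of 49.1 and 60.3. Sumo3, a small ubiquitin-like modifier gene, was the one site at a start among those that passed, at chr10:77605817-77607164, with 23.7 and 22.01 against 6.20 and 6.30 (limma adjusted p = 0.0355). The sites at Oit1 and at Pgbd5 passed as well, with STAG1 folds between 20.96 and 30.2 and STAG2 folds between 5.49 and 7.76. Ercc3, Atf1 and Zbed6 with Zc3h11a did not pass (limma adjusted p = 0.0692, 0.0587 and 0.0587). At Atf1, a transcription factor gene of the CREB family, folds were 16.1 and 18.9 against 5.86 and 4.72. Of these 9 sites all but the one at Zbed6 had CTCF in both libraries. Without STAG2 replicate 2 none of the 6 that had passed was still called, and without STAG1 replicate 1 only Samd1 was. Without STAG2 replicate 1 Samd1, Lrrc74a and Myh9 were still called, and without STAG1 replicate 2 all but Myh9, Sumo3 and Oit1.

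**Figure D4:**
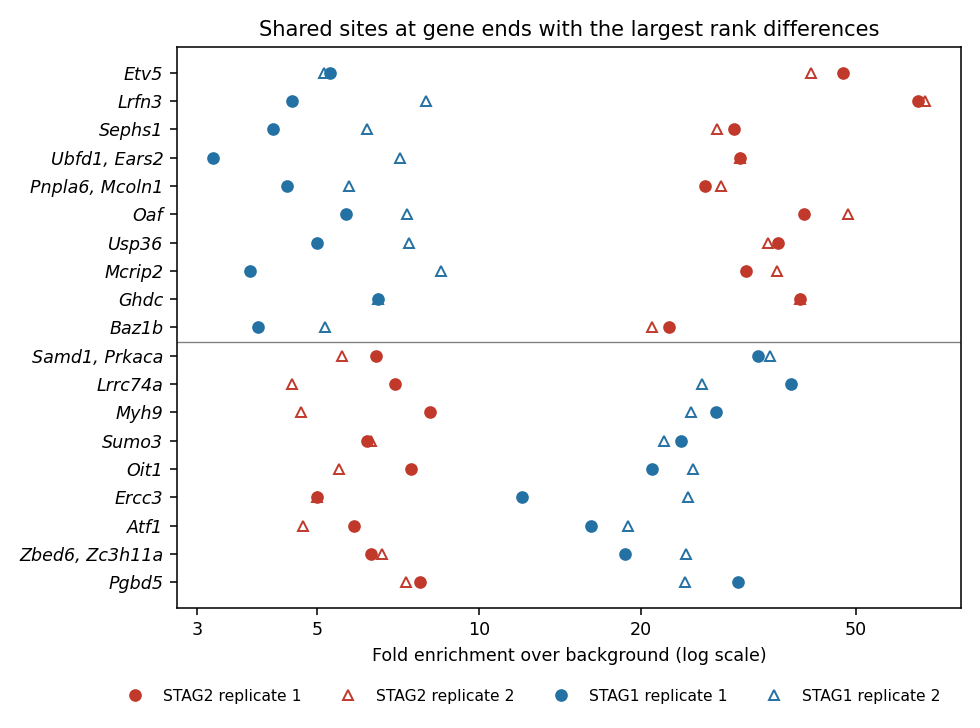
Fold enrichment (log axis) in the 4 libraries at the 10 shared gene-end sites with STAG2 furthest above STAG1 (upper part) and 9 of the 10 with STAG1 furthest above STAG2 (lower part). At Etv5 the STAG2 libraries stand at 47.4 and 41.4 and the STAG1 libraries at 5.28 and 5.14. Rows were chosen for ranks that do not overlap between the proteins, so their separation follows from that choice.

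Over all shared sites, the rank difference varied with CTCF and position together. At the 2485 shared sites without CTCF the median rank was 25.0 ± 0.995 (SD, n = 2) for STAG2 and 17.8 ± 0.854 for STAG1, a difference of 7.21 points. At the 15463 shared sites with CTCF in both libraries and no start within 1 kb it was 58.2 ± 2.66 for STAG2 and 63.3 ± 3.05 for STAG1, a difference of -5.12 points. In neither case did the libraries overlap, and neither can pass at this size (exact permutation p = 0.333). The signs held without each library, with 5.82 to 7.60 and -7.30 to -2.85 points. At the 8110 shared sites near a start the medians were 46.8 ± 4.89 and 41.1 ± 8.34, and the libraries overlapped (exact permutation p = 0.667). STAG1 replicate 1 was the low one there, with a median rank of 35.2, while STAG1 replicate 2 had 47.0 and the STAG2 libraries 43.3 and 50.2. The 2033 shared sites with neither a start nor CTCF showed the widest gap of these sets, 26.9 ± 0.112 against 18.1 ± 2.02. At the 452 shared sites near a start without CTCF the medians were 17.8 ± 4.92 for STAG2 and 17.0 ± 5.00 for STAG1. The libraries overlapped there (exact permutation p = 0.667), so the gap without CTCF was seen mainly away from starts.

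Sites with CTCF in both libraries were divided into 5 groups of equal width in mean CTCF rank, with 4253 to 4746 sites each. Away from starts the median difference was 2.04 points, in favour of STAG2, in the weakest group. It was -3.95, -5.68, -3.14 and -0.48 points in the following ones. Near starts it was between 2.57 and 5.39 points in favour of STAG2 in all 5 groups. In each of them the sites near starts had the higher median. All groups come from the same 4 libraries. Over the 6978 sites near starts with CTCF in both libraries, median ranks were 48.1 and 54.9 for STAG2. They were 39.1 and 50.9 for STAG1, so the libraries overlapped (exact permutation p = 0.667) and STAG1 replicate 1 was the low one.

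The rank differences were found again in quiescent cells. Of the 160 STAG2-higher sites 135 had a peak in all 4 quiescent STAG libraries, and at all 135 the mean STAG2 rank was the higher, by a median of 59.5 points. Of the 112 STAG1-higher sites 103 could be compared, and at all 103 the STAG1 rank was the higher, with a median difference of -33.3 points. Among 21559 sites that were not called, STAG2 was higher at 50.6%. Other fits called other sites, and not all of those kept their side. With the replicate number as a block, 93.8% of 1183 STAG2-higher and 98.1% of 1545 STAG1-higher sites did. With 1 library of proliferating cells left out, the shares were 91.0% to 100% and 97.1% to 100%. At Etv5 the quiescent folds were 63.4 and 49.6 for STAG2 and 5.29 and 5.66 for STAG1. At Sumo3 they were 13.9 and 6.80 for STAG2 and 21.01 and 20.4 for STAG1. The larger sets without overlapping ranks kept their side less often, at 83.2% of sites with STAG2 above and 86.0% with STAG1 above. At shared sites without CTCF the median of the site differences was 3.59 points over the 955 that had all 4 quiescent peaks. In proliferating cells this median was 6.96 points over all 2485 of them. The 2 values cover different sites, with ranks taken over different sets, so a change in the gap cannot be read from them.

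**Figure D5:**
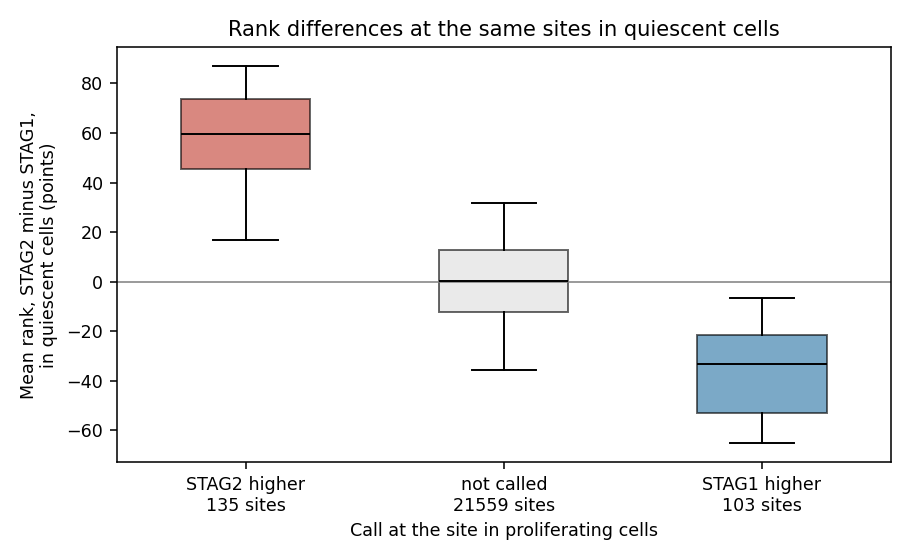
Mean rank of STAG2 minus that of STAG1 in quiescent cells (points) at sites sorted by their call in proliferating cells; boxes show quartiles and median, whiskers the 5th and 95th percentiles. The 135 STAG2-higher sites centre on 59.5 points, the 103 STAG1-higher sites on -33.3, and the sites not called on 0.18.

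At the level of genes the 2 proteins were mostly found together. Of 21900 protein-coding genes, 10365 (47.3%) had peaks of all 4 libraries within 1 kb of a gene end. STAG2 alone was found at 158 genes (0.721%) and STAG1 alone at 68 (0.311%). With 1 library left out, whichever it was, there were between 229 and 1526 STAG2-alone genes, the latter without STAG1 replicate 2. STAG1-alone genes then numbered between 113 and 551, the latter without STAG1 replicate 1. CTCF was called in both libraries at 28.5% of the STAG2-alone, 52.9% of the STAG1-alone and 89.2% of the shared genes. Of the STAG2-alone genes 63.9% and 51.9% had a peak in the quiescent STAG2 libraries and 15.8% and 22.2% in the quiescent STAG1 libraries. For the STAG1-alone genes the shares were 36.8% and 33.8% in STAG2 and 48.5% and 54.4% in STAG1. A shared site reached the window of 9 STAG2-alone and 4 STAG1-alone genes through the peaks of some libraries only, so there the class depends on where the window ends. Cd68 was one of them, with STAG1 peaks in the window and STAG2 folds of 21.3 and 15.7 at the same site.

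Genes of the EGF receptor and MAPK response were all bound by both proteins. All 33 of them had peaks in all 4 libraries, against 47.3% of all genes. Etv5 was the one whose site was called, with STAG2 higher, where 1.23% of genes with a shared site were called in that direction and 0.182% in the other. Etv4, its close relative, had folds of 9.60 and 6.34 against 3.14 and 4.33, a rank difference of 24.9 points that was not called. Spry1, which restrains receptor signalling, had 39.0 and 38.0 against 42.7 and 48.0. Dusp1, a MAPK phosphatase gene, had 43.8 and 34.7 against 42.7 and 45.7. The median rank difference of the list was 4.34 points, near the 3.45 points over all 10458 genes with a shared site.

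The DREAM complex represses cell cycle genes in quiescent cells. Both proteins were at 39 of 60 G1/S genes (65.0%) and 29 of 49 G2/M genes (59.2%), beside 47.3% of all genes. Their median rank differences were 0.12 and 2.05 points, beside 3.45 points over all genes with a shared site. None was called for either protein, where calls were rare over all genes with a shared site too (1.23% and 0.182%). STAG1 replicate 1 had a peak at 66.7% of the G1/S genes, while the other 3 libraries lay between 88.3% and 91.7%. Over all genes the same library also had the lowest share, 49.6% against 57.2% to 59.7%. Mcm6, a subunit of the replicative helicase, was the one G1/S gene with STAG1 alone, and in quiescent cells both STAG2 libraries and 1 STAG1 library had a peak there. Msh6, a mismatch repair gene, had the largest difference towards STAG2, with folds of 17.0 and 13.8 against 7.00 and 6.502. Rfc4, a clamp loader gene, had the largest towards STAG1, with 14.2 and 24.1 against 9.49 and 8.19 for STAG2. Among G2/M genes Kif23, a mitotic kinesin gene, had 31.3 and 35.3 against 38.0 and 38.0. Of the DREAM and MuvB subunits 11 of 13 had both proteins. At Rbl1, which encodes p107, folds were 14.3 and 9.25 for STAG2 against 21.9 and 21.5 for STAG1, and at Rbbp4, a histone-binding subunit, 12.5 and 15.5 against 7.98 and 8.48, with no call at either.

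Both proteins were at 19 of 24 urothelial differentiation genes (79.2%) and 10 of 17 genes of the basal urothelium (58.8%). Cdh1, which encodes E-cadherin, had folds of 74.1 and 50.02 against 51.7 and 65.4. Upk3b, a uroplakin-related gene, had 59.8 and 44.8 against 48.4 and 61.8, and Upk1b had no peak in any of the 4 libraries. All 11 basal genes with a shared site had a rank difference in favour of STAG2, with a median of 9.12 points, and none was called. Over all genes with a shared site 6520 of 10458 had this sign. Krt17, a keratin of basal cells, had 15.5 and 11.0 against 4.74 and 5.99. Krt5, another basal keratin, had 21.3 and 21.1 for STAG2 but 6.33 and 18.8 for STAG1, so STAG1 replicate 1 was the low library there. Trp63, a master regulator of basal cells, had no peak in its windows.

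The remaining lists held no call, which at the rates over all genes is no result about them. Both proteins were at 19 of 23 growth arrest genes (82.6%), 10 of 21 PPAR gamma targets (47.6%) and 20 of 39 Hox genes (51.3%). Cdkn1c, which encodes the CDK inhibitor p57, had folds of 11.2 and 23.5 against 7.34 and 6.75. Acsl1, a fatty acid activating enzyme, had 19.6 and 15.5 against 7.67 and 16.0. Hoxd4 was the one Hox gene with STAG2 alone. Among genes of cohesin and its partners 10 of 19 (52.6%) had both proteins. Stag2 itself had 33.7 and 31.7 against 25.3 and 32.3, and Stag1 and Rad21 had no STAG peak within 1 kb of either end. Of the markers of other cell types both proteins were at 3 of 20 immune genes (15.0%), 5 of 15 fibroblast genes (33.3%) and 7 of 15 neuron genes (46.7%), beside 47.3% of all genes. The neuron genes had peaks in 73.3% and 80.0% of cases for STAG2 and in 53.3% and 86.7% for STAG1. Postn was the one fibroblast gene with STAG1 alone, and Cd68 the one immune gene. Peaks at a marker gene show binding there and not the presence of that cell type.

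Motifs were counted in the 300 bases around each start, 250 before and 50 after, on both strands. A window belongs to a site that it overlaps, which may be only in part. The CTCF core was in 2.34% of 21263 start windows and in 3.36% of the 9341 windows that overlapped shared sites. It was in 3 of 166 windows that overlapped STAG2-alone sites (1.81%) and in 1 of 35 that overlapped STAG1-alone sites (2.86%). It was in 6 of 153 windows at STAG2-higher sites (3.92%) and in 1 of 10 at STAG1-higher sites, the Cluap1 window printed above, whose site had a rank difference of -8.23 points. The CHR letters TTTGAA, which the MuvB core binds, were in 32 of 166 STAG2-alone windows (19.3%), 1 of 35 STAG1-alone windows, 9.68% of shared windows and 16.0% of all windows. The E2F letters TTTCCCGC, TTTGGCGC or TTTCGCGC were in 3 STAG2-alone and 2 STAG1-alone windows, 3.79% of shared and 2.41% of all windows. The AP-1 letters TGANTCA were in 16 STAG2-alone windows (9.64%), 3 STAG1-alone windows, 4.40% of shared and 6.99% of all windows. The bases G and C made up 56.7% of the STAG2-alone, 56.2% of the STAG1-alone, 63.6% of the shared and 56.2% of all windows. Matches of these letters can overlap one another, and they are a description of the windows.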

How the data were processed

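Peaks were those deposited by the authors, one MACS2 list per library, with no pooling of replicates stated. Per the submitters' processing notes, bcl2fastq, BWA, Picard, MACS2 and HOMER were used on mm10, with no versions named. The deposited values were each peak's fold enrichment (a ratio) and its −log10 p and q; the deposited integer score per peak was not used. The control sample is titled input but labelled IgG and was not analysed here, so the reference of the folds is not settled, and read depth is unknown.

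Sites were built by joining peaks of the 4 lists that share at least 1 bp. A CTCF or quiescent peak was counted at a site if it shared at least 1 bp with the joined interval, which is easier at a wide site. Where a library had several peaks at a site, the highest fold was taken. The peaks of different libraries at a site may therefore have different summits. Folds entered only as ranks within a library over the 27120 shared sites, turned into normal scores and tested with limma 3.58.1 in R 4.3.3 (trend, Benjamini-Hochberg adjusted p under 0.05), a step that was tested on simulated data. Values per library were compared by exact permutation over the 6 arrangements of 2 against 2. Peak intervals were those of the deposited lists. Start windows and gene ends (1 kb on each side) came from RefSeq tables of GRCm38.p6. These held 21900 protein-coding genes, among them every symbol of the gene lists, and start sites for 17492 genes. Exons, introns and UTRs were not annotated here.

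Sites were named by fixed rules: the 10 shared sites of highest percentile; at gene ends, the 10 of each single-protein class, of each direction of rank difference, and of each class alone in both states; and, for each gene list, up to 6 single-protein genes and up to 4 genes with both proteins. Of the sites these rules chose, 4 are not reported here. Genes with the largest difference in a list were named after their values were seen. The comparison, members and lists were chosen with earlier results of these data known. The replicate numbers pair the libraries by number only, and with 2 libraries a group the p-values concern only these libraries. limma draws each site's variance largely from the other shared sites, with a median of 9.34 prior against 2 residual degrees of freedom. Its SEs and p-values therefore do not measure the spread at that site alone. Alternatives were other match rules, thresholds, list lengths, windows, score scales, and each library left out. Those for the CTCF and start shares of single-protein sites and for median ranks by CTCF were added after seeing the data.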

Additional observations from a re-analysis of the deposited data

How the results depend on the processing

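Leaving out 1 library moved most counts. The sites with STAG2 alone ranged from 3290 to 8678, those with STAG1 alone from 2274 to 11014 and shared sites from 27896 to 31334. The Jaccard difference ranged from -0.0329 to 0.0485, the difference in CTCF share of peaks from -12.1 to 1.69 points and that in gene-end share from -0.795 to 1.06 points. The gap in quiescent calls ranged from 7.15 to 24.7 points for STAG2-alone and from 5.26 to 32.4 points for STAG1-alone sites. Genes with STAG2 alone ranged from 229 to 1526, with STAG1 alone from 113 to 551 and with both from 10436 to 11733. The CTCF gap between single-protein sites ranged from -52.7 to 3.80 points and the start gap from -1.14 to 19.1 points. The median rank difference ranged from 5.82 to 7.60 points at shared sites without CTCF, and from -7.30 to -2.85 points at those with CTCF away from starts. limma calls ranged from 6 to 358 (STAG2 higher) and from 3 to 229 (STAG1 higher).

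With 20000 peaks in every library there were 1249 STAG2-alone and 12665 shared sites, and 467, 179 and 4546 genes with STAG2 alone, STAG1 alone and both. With a -log10 q of at least 5 there were 107 STAG1-alone genes. With all lists cut to the length of the shortest there were 199, and the gene-end difference was -0.0631 points. For limma, ranks of -log10 q gave 290 and 353 calls, log2 folds centred on the median 174 and 379, and no variance trend 0 and 0, with 3531 sites at an unadjusted p under 0.05. The fit with a replicate block gave 1339 and 1788 calls, among them all 160 and 112, and a gene start lay by 44.4% and 8.17% of the called sites in place of 73.8% and 6.25%. The deviations of same-numbered libraries correlated at 0.297 over shared sites, from 2 pairs only. The labels do not say what such libraries share, and a common source was not tested. Why these values moved was not tested, apart from the shorter lists and fewer libraries that the settings themselves impose. Every other count or share of the whole comparison kept its direction, with counts within 1.5 times of those reported. For single sites, 559 values were unchanged by this measure, 17 moved, 48 lost and 11 gained their call. Match rules do not apply to the Jaccard index, gene ends or genes. Without read counts, depth cannot be separated from list length.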

Other observations

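Both ends of 1 gene were called in opposite directions. Oga, which encodes the enzyme that removes O-GlcNAc from proteins, had a STAG2-higher site at chr19:45748668-45749917, by its end next to Npm3, with folds of 32.0 and 26.3 for STAG2 and 7.67 and 6.502 for STAG1. The next site along the chromosome, chr19:45782542-45784152 at its other end, was STAG1-higher, with 33.3 and 34.2 for STAG1 and 11.2 and 8.67 for STAG2. CTCF was called in both libraries at both sites, with folds of 7.00 and 6.001 at the first and 7.06 and 6.25 at the second. In quiescent cells the rank differences were 73.8 and -33.3 points. The pair was picked out after its values were seen.

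Single transcription and chromatin genes among the called sites were also picked out after their values were seen. Hes1, a repressor induced by Notch, had a called site outside the gene with folds of 56.1 and 52.5 for STAG2 and 31.7 and 37.3 for STAG1. Srebf2, a regulator of cholesterol synthesis, had 33.0 and 30.6 against 6.502 and 9.75 at its start. Hexim1, an inhibitor of transcription elongation, had 23.5 and 22.8 against 6.38 and 5.37 with no CTCF peak, and in quiescence both STAG2 libraries and neither STAG1 library had a peak there. Plk2, a polo-like kinase gene, had the opposite order at its start, with 14.2 and 16.7 for STAG2 and 45.7 and 44.0 for STAG1.

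Sites that 1 protein held alone in both states, and that were not named above, had modest folds. Gm36298 and Itpripl1 had STAG2 folds between 7.00 and 10.4. Psen2, a presenilin gene, Ifitm3, an antiviral membrane protein gene, Togaram2, Gm29825, Clec3b and Klhdc9 had STAG1 folds between 4.99 and 12.0, all with CTCF in both libraries.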
